A study of Danio rerio with 11 samples.

Results

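Tail tissue of spt mutant zebrafish embryos was set against sorted intermediate mesoderm of spt mutants, with 6 of the 11 arrays of the series chosen by genotype, tissue and stage as labelled. Of the 6 arrays, 3 (replicates 4, 5 and 6) held RNA from the tail at the 21-somite stage, and 3 (replicates 3, 4 and 5) held RNA from intermediate mesoderm (IM) at the 4/5-somite stage. All 6 came from homozygous embryos of the b104 allele of spadetail (spt), which carries a lesion in the T-box gene tbx16, so both sides of the comparison lacked normal tbx16 function. Fish with this allele had been crossed with a line carrying GFP driven by the pax2a promoter, and offspring were used for all arrays. The 21-somite embryos were not selected for GFP, whereas the 4/5-somite embryos were GFP-positive. The latter were freed of the tissue in front of the first somite and of most yolk, dissociated with enzymes, and sorted for GFP. The RNA of a small number of sorted cells was amplified in repeated rounds. Cells that switch on pax2a outside the IM can share the gate, and the purity of the sort was not measured again. The older samples were pieces of tail behind the yolk extension, pooled from several embryos. Their tip, which in spt holds an abnormal ball of cells, had been cut off. These pieces were not sorted and their RNA was not amplified, and besides somites and presomitic mesoderm they held notochord, spinal cord, skin and IM. The repeats of each RNA extraction came from separate clutches, and whether wild-type and spt arrays shared a clutch is not stated. The Affymetrix GeneChip Zebrafish Genome Array, with 1 colour, was used for all arrays. Stage, tissue, cell sorting and RNA amplification therefore differed together between the groups and cannot be told apart in any value below. The study itself compared genotypes within each stage.

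The IM is the strip of mesoderm between the somites and the lateral plate. In zebrafish it gives rise to the pronephros, the larval kidney, and in the posterior body to the first red blood cells and to vessel precursors. Tbx16 is a transcription factor of mesodermal precursors. Without it the cells that should form trunk somites stray into the tailbud, primitive blood is strongly reduced, and somites still form in the tail. A tail piece of this mutant thus holds most tissues of the posterior axis, and the GFP sort was aimed at the early strip from which kidney and blood arise. How much of the sorted sample was IM was not measured. For array candidates seen only outside the IM by in situ hybridization, the study names imperfect sorting as a possible reason.

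The arrays of unamplified tail RNA were the more alike. Pearson's r between deposited signals lay between 0.983 and 0.992 among the tail arrays, between 0.929 and 0.94 among the IM arrays, and between 0.717 and 0.746 across the groups, each over 15502 probe sets that share an array and its background. The median SD of the normalised log2 signal was 0.29 in IM and 0.15 in tail. Between 67.6% and 71.1% of probe sets reached a deposited signal of 100 on an IM array, against 82.2% to 84.1% on a tail array. The 3′ control probe set for GAPDH, a glycolytic enzyme spotted by the manufacturer as a check of RNA integrity, gave deposited signals of 183, 125 and 141 on the IM arrays and 891, 711 and 845 on the tail arrays. Its 5′ counterpart gave 600, 533 and 613 on the IM arrays and 570, 837 and 834 on the tail arrays, where the groups overlapped. For the actin control acta1 the 3′ probe set gave 261, 567 and 259 in IM and 1129, 1420 and 916 in tail. The 5′ probe set for acta1 gave 141, 214 and 156 in IM and 177, 336 and 298 in tail, with overlap. The control probe set for destabilised enhanced GFP gave 210, 383 and 214 in IM and 271, 270 and 295 in tail, which also overlapped. Whether these differences were technical, and what they contributed to the comparisons below, was not tested.

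Lists of hox groups 9 to 13, notochord, presomitic mesoderm, skin and matrix had the largest shares of members higher in tail. These shares were 50% to 64.7% under all 3 scalings described below. The largest difference in the other direction was that of the kidney regulator hnf1bb. Of 15502 probe sets, 3325 (21.4%) were higher in tail and 3799 (24.5%) were lower at an adjusted p under 0.05 (limma, Benjamini-Hochberg adjustment over all probe sets). For 8793 named genes, each represented by its brightest probe set, the counts were 1939 higher (22.1%) and 2037 lower (23.2%). Tests of a difference beyond 1 on the log2 scale, a factor of 2 that is itself a setting of the test, called 479 genes higher (5.45%) and 198 lower (2.25%). The balance between the directions depended on how the arrays were scaled. Quantile normalisation over the 6 arrays, the main setting, put the median difference of all probe sets at −0.13, the deposited signals put it at 0.42 with 5908 probe sets higher and 1674 lower, and arrays set to the same median put it at −0.35 with 2614 higher and 5284 lower. Without tail replicate 5 or 6 the main scaling called 2425 or 2477 probe sets lower in place of 3799. Counts of group members are therefore given mainly as genes called in the same direction under all 3 scalings, which held for 1480 genes higher in tail (16.8%) and 868 lower (9.87%). A list of genes is read against these 2 percentages, and its median difference against the median of −0.11 over all named genes. In whole tissue, fewer cells of a type and less RNA per cell cannot be told apart.

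In the sentences that follow, signals are quantile-normalised intensities, the IM values are in the order of replicates 3, 4 and 5 and the tail values in the order of replicates 4, 5 and 6, and log2 differences are tail minus IM with their standard errors (n = 3 arrays a group) after 16 was added to each signal, which shortens the difference of dim genes. Where all 3 arrays of the lower group lay below 100, a level taken here as the floor, the fold is given as at least the ratio to that floor. Genes named for the largest differences, over all genes and per list, were picked only where the groups did not overlap. Their lack of overlap was thus set by the choice and is not a result.

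The largest differences toward tail belonged to genes of the skin and of the actin skeleton. Keratin krt5 had signals of 101, 90.4 and 110 in IM and 6264, 6960 and 6421 in tail, a log2 difference of 5.82 ± 0.19 and a fold of 65.2. Keratin krt4, of the outer skin layer, gave 143, 211 and 163 in IM and 6339, 10429 and 7866 in tail. Profilin gene pfn1, whose product delivers actin monomers, gave 146, 176 and 154 in IM and 6627, 6459 and 5840 in tail. In each of these 3 genes every tail array lay more than an order of magnitude above every IM array, with adjusted p-values of 7.54e-05, 9.34e-05 and 7.54e-05. The claudin gene cldni, of epithelial tight junctions, had 281, 47.7 and 62.8 in IM and 4511, 5058 and 4714 in tail, and its first IM array stood above the other two without reaching the tail (difference 5.38, 5.99 without IM replicate 3). The other 8 genes named by the same rule of largest difference were si:ch211-195b11.3 (5.56), the myosin light chain gene myl9b (4.91), the chromatin protein gene hmgb2a (4.85), the collagen gene col28a2a (4.81), skeletal actin acta1a (4.79), the actin-sequestering thymosin gene tmsb1 (4.74), ntd5 (4.72) and apobb.1 (4.68), which encodes an apolipoprotein of yolk lipid transport. Of named genes, 26 were higher by at least 4 on the log2 scale and called, against 1 gene lower by that much.

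That 1 gene was hnf1bb, a homeobox transcription factor that patterns the kidney tubule. Its signals were 6808, 8226 and 4025 in IM and 94.6, 73.7 and 65.7 in tail, a log2 difference of −6.03 ± 0.31 and a fold of at least 63.5 (adjusted p = 0.000101). It was bright on every IM array and lay below 100 on every tail array. Next came si:ch73-311h14.2 with 7129, 6771 and 7994 in IM and 517, 524 and 566 in tail, with another probe set at a difference of −0.24. The mitochondrial dicarboxylate carrier gene slc25a10b (−3.56), ypel3 (−3.49), the calcium-binding protein gene s100a1 (−3.47), ntrnl2 (−3.45), si:dkey-73n10.1 (−3.33), rgs5a, a regulator of G-protein signalling (−3.30), ftr82 (−3.28), fbxo43, a meiotic inhibitor of the anaphase-promoting complex in vertebrate eggs (−3.09), the deubiquitinase gene usp37 (−3.05) and the histidyl-tRNA synthetase gene hars (−3.04) completed this set. Some were uneven among the IM arrays. For fbxo43 the IM arrays read 2065, 1399 and 517 and the tail arrays 137, 112 and 115, and for ftr82 4968, 4032 and 1600 and 356, 269 and 320, still without overlap.

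**Figure D1:**
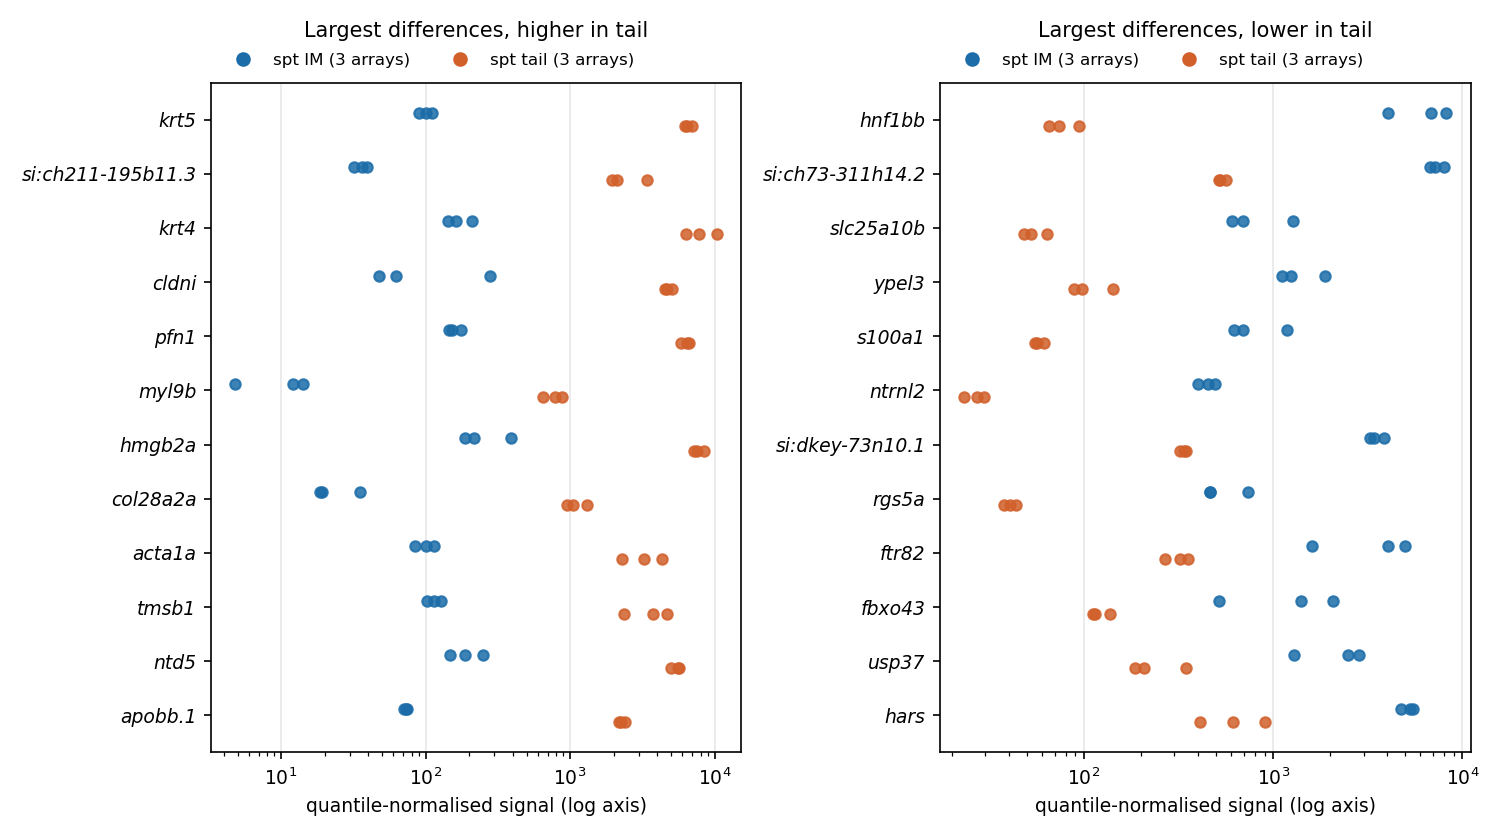
Quantile-normalised signal (log axis) of the 12 genes with the largest difference in each direction, 1 point per array, with spt IM arrays and spt tail arrays in different colours. The groups do not overlap in any of the 24 genes because only genes without overlap were eligible.

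The mutated gene was measured on both sides. The brightest probe set for tbx16 gave 100, 130 and 123 in IM and 333, 322 and 351 in tail, a log2 difference of 1.40 ± 0.16 (adjusted p = 0.000795), and every tail array lay above every IM array. Its second probe set differed by 2.34. Normalised together with the 5 wild-type arrays, tbx16 read 103, 133 and 126 in spt IM, 137 and 139 in wild-type IM, 342, 330 and 359 in spt tail and 1508, 863 and 1258 in wild-type tail. The tail labels thus went with a lower tbx16 signal in the mutants, and at the IM stage both genotypes lay at 103 to 139. The array cannot show whether the transcript was intact.

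The gene used for the sort was higher in the sorted cells. Paired-box gene pax2a, needed for kidney tubule and midbrain-hindbrain development, had signals of 1105, 1346 and 645 in IM and 168, 108 and 156 in tail, a log2 difference of −2.67 ± 0.32 and an adjusted p of 0.00094. The groups did not overlap, though its other probe set differed by only −0.48. LIM homeobox gene lhx1a, an early kidney regulator, gave 1417, 845 and 960 in IM and 152, 136 and 123 in tail, again without overlap and with a difference of −2.80 ± 0.25. Other lhx1a probe sets differed by −1.30 and −0.47, and the latter was not called. The bHLH gene hand2, which marks lateral mesoderm and restrains the IM, gave 2090, 1285 and 1267 in IM and 290, 331 and 403 in tail. The list of IM factors also held this lateral gene hand2. Of its 11 matched genes, 4 were lower in tail (hnf1bb, lhx1a, pax2a and hand2) and 3 were higher under all 3 scalings. The 3 higher ones were dim: evx1, a posterior homeobox gene, read 290, 275 and 316 in tail, sim1a, a regulator used in the distal pronephros, 159, 160 and 178, and wt1a, a podocyte regulator, 104, 115 and 158. For wt1a another probe set was called lower (−0.65, adjusted p = 0.00599) and a further one was at 0.09. By the brightest probe sets the differences were 1.04, 0.66 and 0.92, and that of sim1a was not called without tail replicate 5 (0.66, adjusted p = 0.0514) or 6 (0.59, adjusted p = 0.0608). Over the list the median was −0.50 and turned to 0.22 on the deposited signals.

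Some transport genes of the working kidney tubule were higher in tail. The sodium-chloride cotransporter gene slc12a3, of the distal tubule, had 86.9, 64 and 90.7 in IM and 1074, 710 and 852 in tail, a log2 difference of 3.20 ± 0.23 and a fold of at least 8.79. Sodium pump subunit genes followed, with atp1a1a.4 at 146, 92 and 87.8 in IM and 752, 925 and 1150 in tail and atp1b1a at 882, 527 and 730 in IM and 4704, 4253 and 4906 in tail. For all 3 genes the lowest tail array exceeded the highest IM array. Water channel gene aqp3a, which skin cells use as well, differed by 1.79 ± 0.22. Of 12 matched genes of pronephros function, these 4 were higher and rfx2, a regulator of motile cilia, was lower under all 3 scalings (−0.94), and the main scaling alone called 4 higher and 4 lower. Without tail replicate 5 or 6 rfx2 was not called, at −0.88 and −0.95 with adjusted p-values of 0.0754 and 0.0666. The cadherin gene cdh17, a marker of the whole duct, was not called, with 1789, 591 and 46.7 in IM and 1140, 1027 and 1303 in tail. Its difference was 1.51, but 2.56 without IM replicate 3 (adjusted p = 0.0507) and 0.15 without IM replicate 5. The median of these genes was 0.02 under the main scaling and −0.06 with equal medians.

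Several blood regulators were lower in the tail. Gata2a, a transcription factor of blood precursors, had 1180, 790 and 532 in IM and 221, 174 and 182 in tail, a log2 difference of −1.96 ± 0.31. Lmo2, a partner of Tal1 and Gata factors in blood and vessel precursors, gave 5121, 4157 and 4042 in IM and 746, 1302 and 2000 in tail, and the ETS gene fli1 747, 1372 and 1268 in IM and 397, 311 and 323 in tail. The groups did not overlap in any of these. Gata1a, the erythroid regulator, read 166, 258 and 194 in IM and 44.2, 52.5 and 50.4 in tail, which put all tail arrays below the floor, and differed by −1.75 ± 0.18. Of 13 blood transcription factors, 5 were lower (gata1a, gata2a, lmo2, fli1 and the cofactor gene ldb1a, −1.31) and 1 higher (cbfb, 0.83) under all 3 scalings, against 9.87% lower and 16.8% higher among all genes, and the main scaling alone called 8 lower. The median over this list was −0.56, and 0.11 on the deposited signals. Second probe sets of fli1 and ldb1a differed by −0.29 and −0.37 and were not called. Tal1, the founding blood factor, was not called (difference 2.42 ± 1.202) and its IM arrays read 883, 18.7 and 19.7 against 628, 423 and 591 in tail. Leaving out IM replicate 3 raised the difference to 4.02 and made it a call (adjusted p = 0.000241), toward tail, and leaving out IM replicate 4 or 5 gave 1.67 or 1.70 with no call.

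The globin genes that could be matched, 5 of 13 listed names, were dim on both sides. The other listed globins were not measured here, and the values below cover the matched ones only. Of the 5 matched globin genes only hbba2 was called (0.69, and 0.63 with an adjusted p of 0.0526 without tail replicate 6), and embryonic globin hbbe3 read 146, 132 and 157 in IM and 156, 161 and 152 in tail with overlapping groups. The summed globin signal ran from 814 to 931 in IM and from 804 to 861 in tail, and hbae3 and hbbe3 exceeded 100 on all arrays. No globin gene was lower at an adjusted p, and 1 was at an unadjusted p under 0.05. The list's median was −0.17, and 0.63 on the deposited signals. Of 18 heme and red cell genes, 2 were lower and 1 higher under all 3 scalings, 8 were lower under the main one, and the median of −0.49 was 0.23 on the deposited signals. Not all of them were dim: ca2 read 1635, 62 and 48.4 in IM and 713, 1317 and 1072 in tail, and was not called. Anion exchanger gene slc4a1a, the band 3 protein of the red cell membrane, read 172, 114 and 279 in IM and 11.4, 17.7 and 16.8 in tail, nfe2, an erythroid transcription factor, 346, 396 and 455 in IM and 88.8, 117 and 125 in tail, and cpox, a heme synthesis enzyme, 205, 119.1 and 173 in IM and 435, 423 and 430 in tail. The first pair was low on every tail array and cpox was high on every tail array. The study listed red blood cell genes from databases and the literature, and dropped the non-expressed probe of a sense and antisense pair. Of 78 matched genes of that list 14 were higher (17.9%) and 10 lower (12.8%), against 16.8% and 9.87% among all genes. Among 9 vessel genes the receptor genes kdrl (44, 231 and 39.2 in IM and 544, 478 and 393 in tail) and flt4 (120, 136 and 125 in IM and 337, 342 and 366 in tail) were higher without overlap, 0 were lower under all 3 scalings and 1 under the main one (1 also at an unadjusted p under 0.05), and the list's median of −0.02 was 0.70 on the deposited signals. Kdrl differed by 2.37, by 3.11 without IM replicate 4, and by 2.23 without tail replicate 4, where it was not called (adjusted p = 0.0538). Myeloid genes numbered 14, with 1 higher and 1 lower, and a median of −0.03 that was 0.58 on the deposited signals.

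Presomitic mesoderm, the unsegmented tissue from which somites bud, had 10 of 17 listed genes higher in tail. Mesogenin (msgn1), a bHLH factor of that tissue, read 170, 138 and 144 in IM and 3126, 2377 and 2668 in tail, a log2 difference of 4.03 ± 0.21 (adjusted p = 0.000103). Tbx6, a T-box factor of the same tissue, gave 284, 476 and 266 in IM and 1972, 1846 and 1502 in tail, and the Notch target gene hey1 140, 182 and 314 in IM and 813, 812 and 799 in tail. All 3 were higher on every tail array. Of 17 genes on the list, 10 were higher and 0 lower under all 3 scalings, among them the segmentation clock gene her1 (1.61). Over the list the median was 0.95, and 0.79 to 1.54 under the other scalings. The main scaling called 0 genes lower as well, also at an unadjusted p under 0.05. Aldh1a2, the enzyme that makes retinoic acid in somites, was not called, with 736, 118 and 512 in IM and 245, 248 and 169 in tail and overlapping groups. Without IM replicate 4 its difference of −0.69 became −1.42 and was called lower (adjusted p = 0.00826).

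Of 13 myogenic regulators, 6 were higher in tail. Myf5, the first muscle determination factor, had 171, 206 and 210 in IM and 1329, 1071 and 1162 in tail, a difference of 2.51 ± 0.21. Mef2d, a factor of muscle fibre differentiation, read 91, 81.8 and 110 in IM and 462, 441 and 353 in tail, and dmrt2a, a regulator of somite symmetry and muscle identity, 58.8, 67.9 and 78.3 in IM and 362, 277 and 217 in tail. None of these groups overlapped. Myod1, the partner of Myf5, differed less (119.4, 200 and 126 in IM and 256, 254 and 220 in tail, difference 0.68 ± 0.22) and was called only with all arrays or without IM replicate 4. Leaving out any other array gave 0.57 to 0.74 with adjusted p-values of 0.0805 to 0.122. Myogenin (myog), which acts in differentiating fibres, was not called (139, 143 and 162 in IM and 285, 250 and 176 in tail, adjusted p = 0.05002), but was called without tail replicate 6 (0.78, adjusted p = 0.0296). Under all 3 scalings 6 of 13 genes were higher and 0 lower, whereas the main scaling alone called 4 lower (4 also at an unadjusted p under 0.05), among them tbx18, of the front of each somite (−1.09). The median of these genes was 0.60 and stayed positive under the other scalings.

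Contractile genes split. Skeletal actin acta1a read 101, 114 and 84.6 in IM and 4344, 3238 and 2299 in tail, cardiac actins actc1a 453, 547 and 594 in IM and 5173, 6077 and 5658 in tail and actc1b 262, 454 and 271 in IM and 2763, 4428 and 4415 in tail, and slow myosin smyhc1 154, 84.1 and 96.8 in IM and 703, 867 and 326 in tail. All 4 were higher on every tail array, although the actc1b probe sets ranged from −2.17 to 3.50 and so did not agree in sign. In the other direction, fast troponin T gene tnnt3b read 1163, 837 and 857 in IM and 108, 116 and 113 in tail and fast troponin I gene tnni2a.4 530, 915 and 566 in IM and 77.1, 93.4 and 90.2 in tail, with differences of −2.90 ± 0.21 and −2.70 ± 0.25. The fast myosin light chain gene mylz3 was lower as well (−1.29). Over 27 sarcomere genes, 6 were higher (22.2%) and 3 lower (11.1%) under all 3 scalings, near the 16.8% and 9.87% of all genes. Their median was 0.27 and was positive under every scaling. The summed signal of the list was 7754 to 9198 in IM and 19965 to 23245 in tail. Of 21 genes for muscle calcium handling and energy 7 were higher and 1 lower (6 lower under the main scaling): casq2, a calcium store protein, differed by 1.87 and ckma, muscle creatine kinase, by −1.21. Among 11 muscle chaperones 4 were higher and 1 lower. Hsp90aa1.1, the Hsp90 form that folds myosin, read 110, 107 and 125 in IM and 2510, 2274 and 1789 in tail (difference 4.07 ± 0.22), and its co-chaperone unc45b 208, 313 and 184 in IM and 909, 1081 and 735 in tail, while the small heat shock gene hspb1 read 5419, 7994 and 7866 in IM and 1652, 1780 and 2121 in tail. Of 171 genes that the study had listed for somites, 51 were higher and 9 lower.

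**Figure D2:**
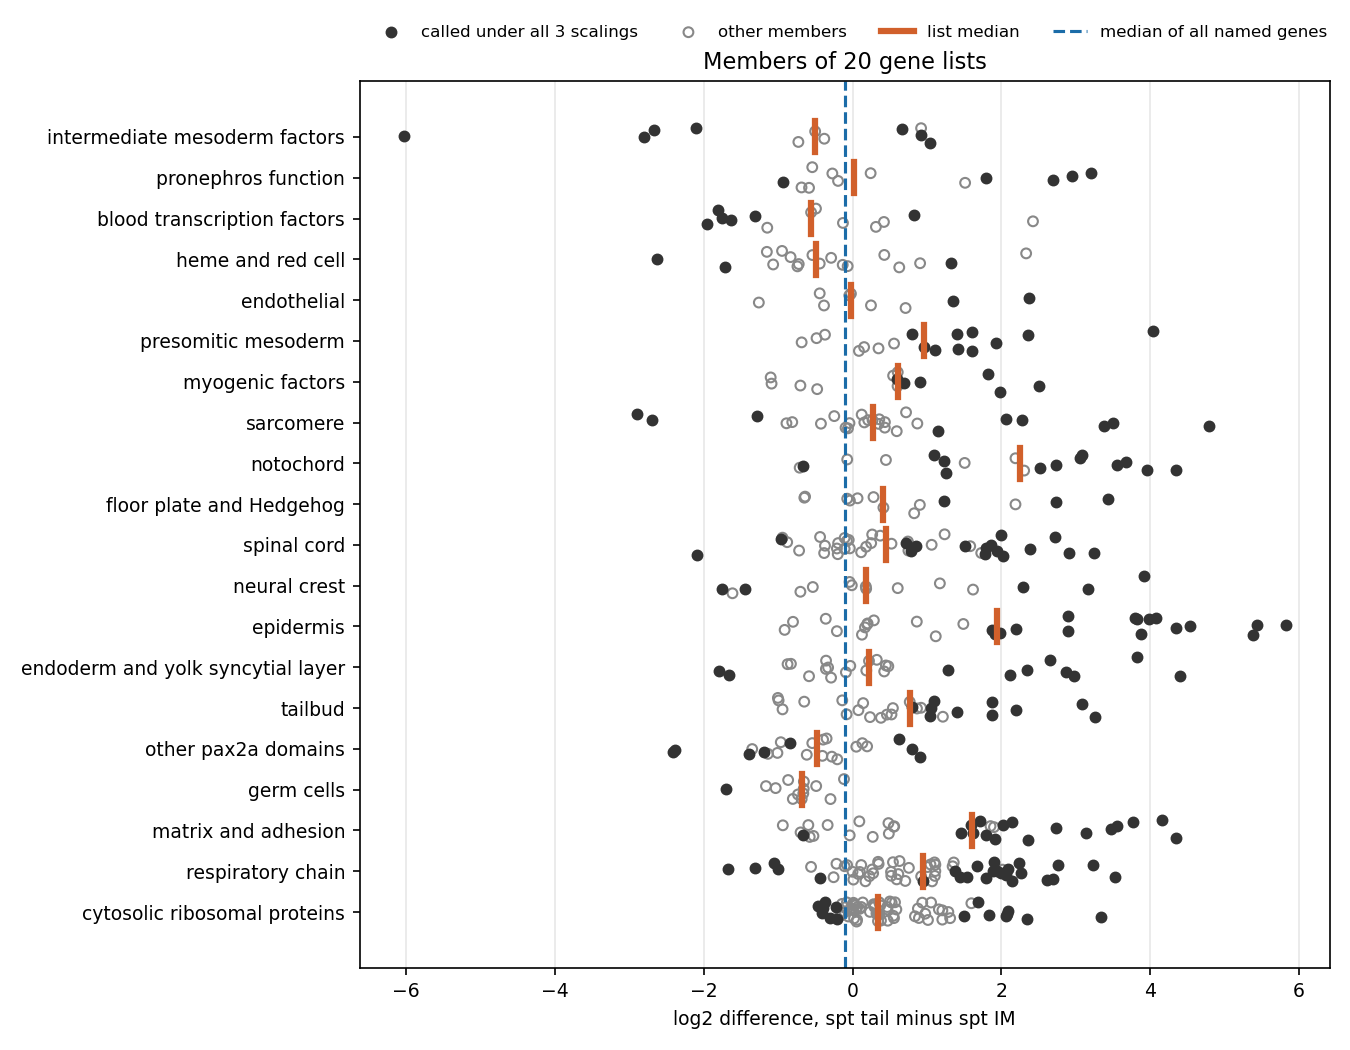
Log2 difference of every matched member of 20 gene lists, tail minus IM, 1 point per gene with the list's median as a bar and the median of all named genes as a dashed line. Filled points were called in the same direction under all 3 scalings; notochord and epidermis lie farthest to the right, and the sarcomere and IM lists spread to both sides.

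Axial tissue was prominent in the tail. Col2a1a, the collagen of the notochord sheath, had 153, 162 and 162 in IM and 4240, 3920 and 2654 in tail, a log2 difference of 4.34 ± 0.24 (adjusted p = 0.000117). Tbxta, the T-box gene required for the notochord, read 188, 290 and 263 in IM and 2032, 2587 and 1970 in tail, and foxa2, a factor of notochord and floor plate, 82.8, 73.4 and 86.3 in IM and 591, 691 and 599 in tail. No IM array reached a tail array in any of them. Col8a1a (3.95), the collagen-modifying enzyme gene plod1a (3.68, and 3.05 without IM replicate 5) and laminin lamc1 (3.56) were also far apart, and lamb1a, a laminin expressed widely, was lower (5609, 6646 and 5988 in IM and 4388, 3752 and 3326 in tail). Of 18 notochord genes 11 were higher and 1 lower under all 3 scalings, with a median of 2.25 (1.69 to 2.51 under the other scalings). Floor plate and Hedgehog genes numbered 13, of which 3 were higher and 0 lower. Ventral neural homeobox gene nkx2.9 read 11.9, 12.8 and 10.8 in IM and 342, 251 and 267 in tail, and shha, the secreted Hedgehog signal, 464, 450 and 514 in IM and 1504, 960 and 1014 in tail. The main scaling called 1 gene lower, and 1 was at an unadjusted p under 0.05. The median over this list was 0.41 and positive under every scaling.

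Neural genes were mixed, with more of them higher. Sox19a, a neural precursor factor, had 401, 238 and 515 in IM and 3586, 3699 and 3522 in tail (difference 3.24 ± 0.29). Delta ligand gene dlb, of newborn neurons, read 69.7, 48.3 and 92.9 in IM and 450, 610 and 579 in tail, and neurog1, which commits precursors to neurons, 104.7, 159 and 93.3 in IM and 654, 587 and 785 in tail. Each was higher on every tail array. Of 42 spinal cord genes 14 were higher, including dla (2.02), the pan-neuronal gene elavl3 (1.99), olig2, of motor neuron precursors (1.94), and snap25a, of synapses (1.85), and 2 were lower under all 3 scalings. One of the 2 was sox1a (564, 914 and 571 in IM and 155, 139 and 138 in tail), whose probe sets ranged from −2.09 to 1.57. The list's median was 0.45 and positive under every scaling. Neural crest genes numbered 15: snai2 (34.4, 87.5 and 72.1 in IM and 1188, 1021 and 1233 in tail), foxd3 (230, 290 and 221 in IM and 1891, 2527 and 2652 in tail) and dlx2a (61.6, 69.5 and 56.8 in IM and 337, 361 and 414 in tail) were higher, and mitfa, the pigment cell regulator, was lower (233, 220 and 256 in IM and 64.8, 53 and 59.3 in tail). Tfap2a, which crest shares with skin and kidney, was lower too (9170, 5090 and 4221 in IM and 2189, 1980 and 2201 in tail). Counts under all 3 scalings were 3 higher and 2 lower, and the median of 0.18 was −0.10 with equal medians.

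Many skin genes were far higher in tail. Of 28 epidermal genes 16 were higher and 0 lower under all 3 scalings, 14 of them by more than 1 on the log2 scale in the test of that size. Beside krt5, krt4 and cldni, the S100-family gene icn2 read 102, 93.8 and 99.2 in IM and 2119, 3673 and 2341 in tail and the claudin gene cldne 33.3, 58.1 and 26.4 in IM and 591, 1363 and 876 in tail. Both were higher on every tail array, but another icn2 probe set differed by only 0.16 and was not called. The summed signal of the list was 7691 to 10837 on the IM arrays and 46448 to 66154 on the tail arrays, with 16 of 28 genes at 100 or more on all 3 IM arrays. Over the list the median was 1.95 (1.45 to 2.21 under the other scalings). The main scaling called 1 gene lower, and 1 was at an unadjusted p under 0.05.

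Genes of endoderm and of the yolk syncytial layer, a nucleated sheet at the yolk surface, were mixed. Apolipoprotein gene apoc1 had 197, 281 and 281 in IM and 5935, 5484 and 5312 in tail (difference 4.39 ± 0.21), transferrin tfa 63.3, 52.2 and 78.3 in IM and 937, 1173 and 1262 in tail and afp4, an apolipoprotein-like gene of the yolk layer, 141, 147 and 167 in IM and 1204, 1409 and 1275 in tail. All were higher on every tail array. Gata4, a factor of heart and gut mesendoderm, was lower (368, 582 and 382 in IM and 119.1, 107 and 116 in tail), and so was vitellogenin vtg2, a yolk protein of the mother (304, 253 and 280 in IM and 75.1, 80.9 and 75.5 in tail). Counts were 8 higher and 2 lower of 25, and the median of 0.22 was −0.07 with equal medians. Germ cell genes, supplied in part by the mother, had 0 higher and 1 lower of 13 under all 3 scalings, and 0 higher and 7 lower under the main one (limma, with the same counts at an unadjusted p under 0.05), which included the RNA-binding protein gene dazl (355, 236 and 259 in IM and 120, 129 and 135 in tail). The 1 that held was zp2.6, an egg coat gene (909, 2026 and 974 in IM and 382, 304 and 413 in tail). The germ cell median of −0.69 was −0.07 on the deposited signals.

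Places other than the IM that use pax2a were counted separately by their markers. They are the midbrain-hindbrain boundary, eye, ear and other cranial placodes, most of which lie in the tissue that was cut away before sorting. Of 22 such genes 5 were lower and 3 higher in tail under all 3 scalings. Differences over the list ran from −2.42 to 0.91. The main scaling called 3 genes higher and 7 lower, and 12 were not called. Only lower genes are named here, so the named genes do not stand for the list. Otx1, of the midbrain, read 233, 425 and 243 in IM and 28.6, 46.7 and 54.7 in tail, foxi1, of the otic and epibranchial placodes, 150, 675 and 767 in IM and 67.1, 68.8 and 67.1 in tail, and gbx2, of the anterior hindbrain, 1057, 1277 and 1106 in IM and 495, 479 and 501 in tail. In these 3 genes the groups did not overlap. The difference of foxi1 was −2.42, and −3.12 without IM replicate 3. Engrailed gene en2a, of the midbrain-hindbrain boundary, read 57.4, 76.9 and 59.1 in IM and 22.9, 27.6 and 36.2 in tail and lay below the floor on all 6 arrays. The summed signal of the list was 7337 to 8581 in IM and 4372 to 4543 in tail, and 15 of its genes reached 100 on all arrays in each group. The median of −0.48 was 0.08 on the deposited signals. The part of these cells in the IM values was not tested.

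Hox genes pattern the body axis, and their paralogue numbers run from head to tail. Of 17 measured genes of groups 9 to 13, 11 were higher and 1 lower under all 3 scalings, with a median difference of 1.40. Of 25 genes of groups 1 to 8, 9 were higher and 3 lower, with a median of 0.18. Both medians were positive under all 3 scalings. Hoxc13a, expressed at the posterior end, had 258, 315 and 246 in IM and 2671, 3333 and 2270 in tail (difference 3.25 ± 0.23, adjusted p = 0.000174). Hoxa11b read 166, 170 and 209 in IM and 1100, 1995 and 1611 in tail and hoxa10b 144, 166 and 194 in IM and 1550, 1507 and 1066 in tail. No IM array reached a tail array in these. The 1 posterior gene in the other direction was hoxb9a (3014, 3076 and 2826 in IM and 1761, 1756 and 1793 in tail), with a second probe set at 0.70. Among the anterior groups hoxa1a (327, 349 and 428 in IM and 74.5, 72.9 and 67.2 in tail), hoxc3a (754, 958 and 597 in IM and 300, 289 and 228 in tail) and hoxb8a (1545, 1215 and 1240 in IM and 414, 671 and 569 in tail) were lower, the last with probe sets from −1.27 to 1.15. Yet hoxa2b and hoxa4a, also anterior, were higher, at 304, 196 and 180 in IM and 777, 997 and 927 in tail and 82.4, 90.9 and 92.6 in IM and 290, 389 and 422 in tail. Of 27 tailbud genes, some of them hox genes, 10 were higher and 0 lower under all 3 scalings. The RNA-binding protein gene lin28ab read 35.3, 31.3 and 48.8 in IM and 227, 196 and 274 in tail, and bmp4, the only one lower under the main scaling (2 were at an unadjusted p under 0.05), 236, 262 and 226 in IM and 131, 131 and 187 in tail. Bmp4 differed by −0.65 and was not called without tail replicate 4 (−0.56, adjusted p = 0.0914) or 5 (−0.56, adjusted p = 0.12). The median of these genes was 0.77 and positive under every scaling.

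**Figure D3:**
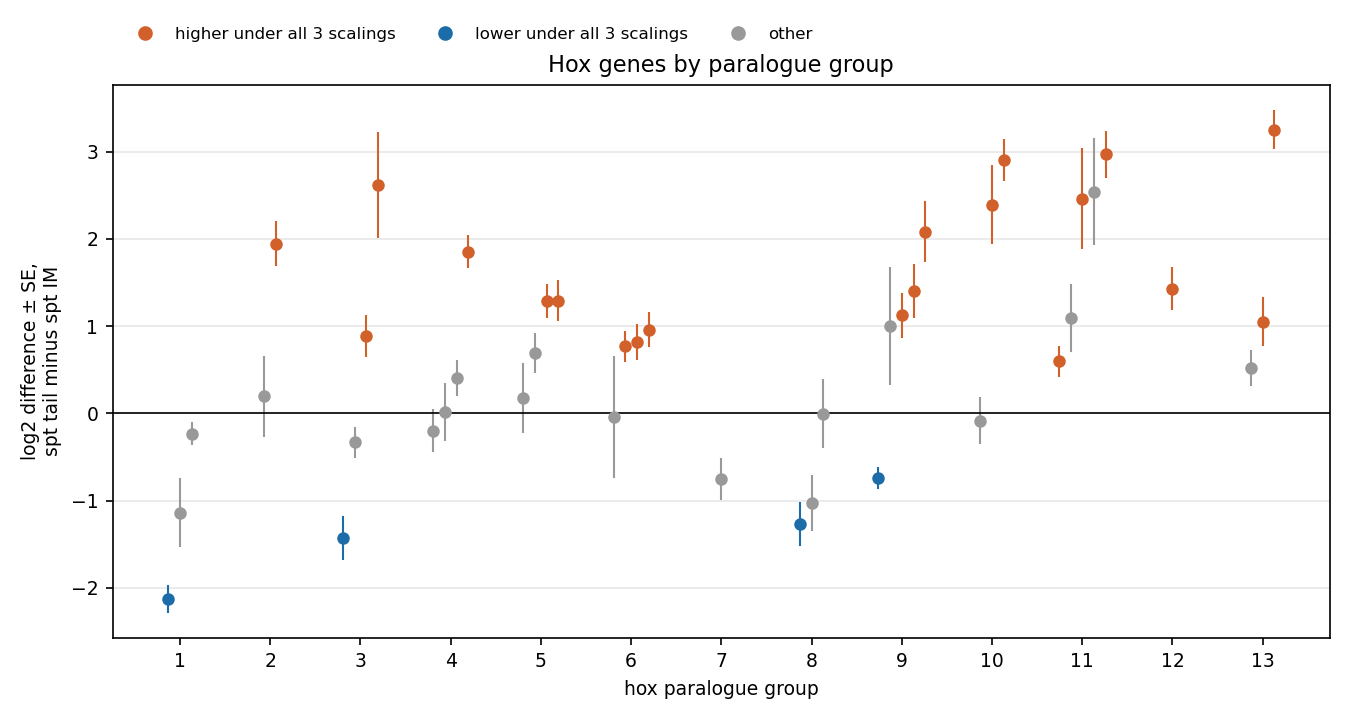
Log2 difference of each measured hox gene, tail minus IM with its standard error, against its paralogue group from 1 to 13. Points of groups 9 to 13 lie mostly above 0, and those of groups 1 to 8 on both sides of it.

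Genes of growth were not shifted as a block. Of 72 cytosolic ribosomal protein genes 8 were higher and 7 lower under all 3 scalings. Under the main scaling alone 35 were higher and 7 lower, and the median of 0.34 turned to −0.68 when arrays were set to the same median. Rpl27a read 812, 856 and 666 in IM and 8936, 7668 and 7418 in tail, rpl10a 1816, 1708 and 1685 in IM and 9243, 8355 and 9100 in tail and rpl31 2435, 2747 and 2268 in IM and 10522, 10868 and 10132 in tail, all higher on every tail array. Rpl22, at 11118, 12814 and 11254 in IM and 8334, 8268 and 8724 in tail, was lower by a smaller but even step, as was rpl5b (11564, 11754 and 10868 in IM and 8355, 8537 and 8802 in tail). Ribosome assembly genes had 5 higher and 10 lower of 45, with a median of −0.18 that was 0.32 on the deposited signals. The polymerase I subunit gene polr1b (2893, 5324 and 4676 in IM and 912, 831 and 1151 in tail) and the helicase gene ddx18 (4146, 5419 and 5963 in IM and 1742, 1454 and 1643 in tail) were lower, with ddx18 probe sets from −1.66 to 0.25. Nhp2, of snoRNA particles, and mycn, a growth regulator, were higher (443, 388 and 486 in IM and 3174, 2960 and 3254 in tail and 198, 141 and 554 in IM and 1793, 1888 and 2028 in tail).

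Cell cycle genes included 11 higher and 3 lower of 48 (16 and 8 under the main scaling), with a median of 0.25 that turned to −0.22 with equal medians. Cyclin D1 gene ccnd1 stood out with 286, 438 and 423 in IM and 4945, 4876 and 5179 in tail (difference 3.68 ± 0.21). The nucleotide enzyme gene dut read 594, 269 and 433 in IM and 3339, 2832 and 3044 in tail and the replication helicase subunit mcm3 555, 439 and 1069 in IM and 3506, 3564 and 3636 in tail, again without overlap. Pcna, the sliding clamp, was not called (4689, 10132 and 10732 in IM and 6292, 6646 and 6627 in tail). Without IM replicate 3 it was called lower (−0.70, adjusted p = 0.00085), against −0.29 with all arrays. Of 21 genes of arrest and p53 response 4 were higher and 1 lower: the cell cycle inhibitor cdkn1ca read 267, 193 and 494 in IM and 2897, 2523 and 2736 in tail and the death gene bbc3 704, 405 and 434 in IM and 104, 134 and 136 in tail. The median of 0.36 was −0.25 with equal medians. Among 61 genes of the respiratory chain 21 were higher and 5 lower, and their median of 0.94 stayed positive under every scaling (0.19 to 1.02). The ATP synthase subunit atp5l read 274, 230 and 313 in IM and 3655, 2891 and 3373 in tail, with another probe set at −2.47, and uqcrq, of complex III, 258, 192 and 121 in IM and 1717, 1772 and 2046 in tail. Complex I genes ndufv2 (3411, 2520 and 2432 in IM and 982, 783 and 791 in tail) and ndufa8 (3379, 2453 and 3526 in IM and 981, 1328 and 1417 in tail) were lower on every tail array. Proteasome genes had 11 higher and 5 lower of 35, with a median of 0.44 that turned to −0.27 with equal medians. The lid subunit psmd3 read 271, 222 and 282 in IM and 2857, 2006 and 2462 in tail and the lid subunit psmd6 3937, 4095 and 3798 in IM and 1939, 2252 and 2369 in tail, so that subunits of a single complex differed in both directions. Of 23 glycolysis genes 5 were higher and 2 lower, led by lactate dehydrogenase ldhba (514, 188 and 564 in IM and 3101, 2761 and 2216 in tail) and hexokinase hk1 (8355, 6264 and 4810 in IM and 721, 858 and 1028 in tail), and the median of 0.11 turned to −0.31 with equal medians. Another bright hk1 probe set was not called, with 1867, 2228 and 1156 in IM and 1134, 1167 and 1213 in tail.

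Dissociation with enzymes and sorting can raise early response genes, so a list of 36 such genes was read beside the others. Under all 3 scalings 7 were higher in tail and 4 lower. The AP-1 gene fosl2 read 843, 911 and 771 in IM and 185, 179 and 190 in tail and heat shock gene hspa1b 259, 362 and 238 in IM and 74.6, 73.9 and 86.5 in tail, both higher on every IM array. Ddit4, a stress-induced growth inhibitor, went the other way (61, 38 and 77.7 in IM and 215, 319 and 338 in tail), as did ier2a (419, 398 and 589 in IM and 1363, 1816 and 1692 in tail). Fosab was not called (783, 507 and 664 in IM and 522, 182 and 213 in tail), at −1.18, but was called lower without tail replicate 4 (−1.63, adjusted p = 0.00969). The summed signal of the list was 38132 to 44085 in IM and 41843 to 43982 in tail. The median of 0.18 was −0.24 with equal medians. Its part in the other results was not tested.

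Matrix genes were higher more often than lower, and genes of signalling pathways were mixed. Of 32 genes of matrix and adhesion 16 were higher and 1 lower, with a median of 1.60 (1.21 to 2.04 under the other scalings). Collagen I gene col1a2 read 177, 55.6 and 54.8 in IM and 1678, 1740 and 1844 in tail, matrilin matn4 47.4, 59.4 and 49 in IM and 1012, 1216 and 608 in tail and fibronectin fn1a 349, 339 and 546 in IM and 1075, 1571 and 1477 in tail, although probe sets for fn1a ranged from −1.25 to 1.72. The study's pathway lists gave 17 higher and 7 lower of 52 for TGF-beta, 14 and 5 of 51 for Wnt (14 and 14 under the main scaling), 9 and 4 of 28 for Delta-Notch, 11 and 0 of 38 for FGF, and 2 and 0 of 14 for retinoic acid, under all 3 scalings. The main scaling called 7 FGF genes and 3 retinoic acid genes lower, and 8 and 3 were lower at an unadjusted p under 0.05. Id1, a target of BMP signals, read 446, 787 and 736 in IM and 5202, 5693 and 5536 in tail and its relative id3 1504, 2408 and 1446 in IM and 539, 744 and 579 in tail, in opposite directions without overlap. The BMP antagonist nog1 read 90.4, 80.7 and 94.2 in IM and 810, 588 and 673 in tail. The Wnt ligand wnt11 read 78, 232 and 202 in IM and 1624, 1460 and 1251 in tail and the secreted Wnt inhibitor wif1 117, 420 and 137 in IM and 1417, 1452 and 1434 in tail, both higher, whereas ctnnbip1, an inhibitor of beta-catenin, read 3977, 4119 and 4555 in IM and 1484, 1501 and 1867 in tail and was lower. Notch ligand jag2b (2.08) was higher, and aph1b, of the gamma-secretase that cuts Notch, was lower (−1.45). Of FGF pathway genes, the stress-responsive factor atf4a (2.73) and the kinase gene map2k6 (2.14) were higher. Retinoic acid binding protein gene crabp2a read 443, 912 and 533 in IM and 2648, 3536 and 2911 in tail, with every tail array above every IM array. The TGF-beta, Wnt, FGF and retinoic acid medians lay between 0.02 and 0.20, those of Wnt, FGF and retinoic acid turning negative with equal medians, and that of Delta-Notch was 0.42.

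Replicates of the amplified samples disagreed gene by gene. Among genes whose brightest array of a group reached 500, 153 differed by at least 10 times between the lowest and the highest spt IM array, and 0 did so among the spt tail arrays. The highest array of these was replicate 3 for 68 genes, replicate 4 for 32 and replicate 5 for 53, so no single array held them all. Of the 153, 6 were called between tail and IM, against 22.1% called higher and 23.2% called lower among all named genes. A wide spread among the IM arrays itself makes a call less likely, so this count follows from the choice and is not a result. The cell cycle gene cdca7a read 45, 2445 and 3690 in IM, synuclein sncb 1988, 26.9 and 1554, tubulin tuba8l3 2004, 36.6 and 40, the vesicle transport gene sft2d1 2008, 35.1 and 865, and tal1 as given above. These were the 5 genes of largest SD in IM. Their tail arrays were far closer, such as 2192, 2517 and 2733 for cdca7a and 2384, 1963 and 1299 for tuba8l3. The 5 of largest SD in tail were pax9, of the sclerotome (166, 603 and 655), lye (477, 1919 and 1108), si:ch1073-340i21.3 (711, 2731 and 1891), alg3 (512, 1330 and 1568) and the cell polarity gene prickle1a (344, 524 and 1127). Tail replicate 4 was the lowest in all 5. A gene absent from the calls may therefore be one that the IM arrays did not measure alike. A test with unequal variances, which took the spread of each probe set by itself, called 3385 probe sets in place of 7124. The limma fit with weights per group, which also let the spread differ between the groups, called 6932.

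**Figure D4:**
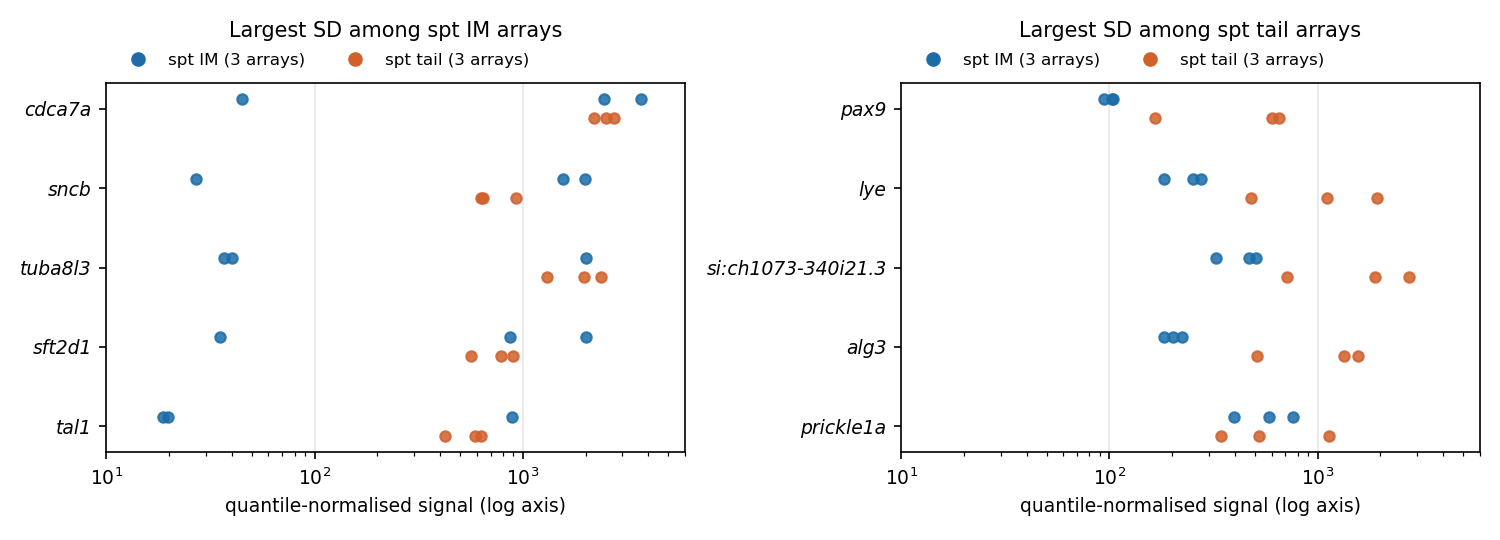
Quantile-normalised signal (log axis) on each array for the 5 genes with the largest SD among spt IM arrays and the 5 with the largest SD among spt tail arrays. The IM arrays of the first 5 lie far apart, while the tail arrays of the last 5 lie far closer together.

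Several probe sets were present for 1539 of the genes, and in 186 of them (12.1%) the probe sets of a gene were called in opposite directions. Counts over genes take the brightest probe set only. Beside the genes whose probe sets are described above, the signs also differed for usp37 (−3.05 to 0.36), fosl2 (−2.09 to 0.80), hoxa10b (−0.39 to 2.91), mef2d (−0.13 to 1.98), elavl3 (−0.40 to 1.99), ndufv2 (−1.68 to 0.25), slc12a3 (−0.0035 to 3.20) and rnf19a (−0.40 to 1.99), and for npdc1a near 0. In rnf19a the brightest probe set was not called in spt and the other probe sets were called higher, and in fosl2 another probe set was called higher. For the lists not yet given under both counts, the main scaling alone called more genes lower than all 3 scalings together: 4 against 1 for myeloid genes, 5 against 3 for the sarcomere, 3 against 1 for muscle chaperones, 2 against 1 for the notochord, 3 against 2 for the spinal cord, 4 against 2 for neural crest, 6 against 2 for endoderm and yolk layer, 5 against 3 for hox groups 1 to 8, 4 against 1 for arrest and p53, 6 against 2 for glycolysis and 5 against 1 for matrix and adhesion. In the study's lists the same counts were 12 against 7 for TGF-beta, 21 against 9 for somites and 22 against 10 for red blood cells. Among higher genes the main scaling called 33 against 21 for the respiratory chain and 10 against 5 for ribosome assembly.

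Wild-type embryos were sampled at the same stages and in the same way, so the same technical differences lie between their groups, with 3 tail and 2 IM arrays. A further wild-type IM array had been set aside by the study after it grouped apart from its replicates. Red cell markers such as gata1 were lower on it by as much as 2 orders of magnitude. How this choice of wild-type IM arrays bears on the interactions below was not tested. In a fit of all 11 arrays the wild-type difference called 1889 named genes higher (21.5%) and 2128 lower (24.2%). Of the 1480 genes higher in spt tail under all 3 scalings, 1171 (79.1%) were also called higher in wild type, 10 were called lower and 299 were not called. Of the 868 lower ones, 709 (81.7%) were lower in wild type, 2 higher and 157 not called. Hnf1bb differed by −6.39 in wild type, krt5 by 5.46 and msgn1 by 3.24, beside −6.03, 5.82 and 4.03 in spt. Msgn1 does not stand for the presomitic mesoderm list. Over its 17 genes the median difference was 2.31 in wild type and 0.95 in spt. The difference between the 2 genotypes was then tested directly as an interaction. It was called for 84 of 15502 probe sets (0.542%), 39 more positive in spt and 45 more negative, against 1429 at an unadjusted p under 0.05. For named genes the count was 52 of 8793 (0.591%), and in 36 of these the tail minus IM difference had opposite signs in the 2 genotypes. Of the presomitic mesoderm list 0 genes were called, and the median interaction of that list was −0.93. The fit was also run on simulated arrays in which every probe set kept its own spread in each group. There the interaction called unchanged probe sets far more often than its threshold allows. With a pooled, moderated spread, an assumption added after that result, its false calls stayed within the allowance. Which assumption is closer to these data is not settled, so the calls may be weaker evidence than their adjusted p-values state.

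A few muscle genes were among the interactions. Myogenin read 143, 146 and 166 in spt IM and 292, 257 and 180 in spt tail, 142 and 134 in wild-type IM and 1036, 1094 and 1516 in wild-type tail, with the 11 arrays normalised together. The interaction was −2.37 ± 0.33 (adjusted p = 0.0143), and all 3 spt tail arrays lay below all wild-type tail arrays. Without spt tail replicate 5 it was −2.45 with an adjusted p of 0.0527. Dmrt2a read 371, 285 and 223 in spt tail and 1070, 767 and 880 in wild-type tail, an interaction of −1.94 ± 0.31 (adjusted p = 0.0271) that was lost without any 1 of 6 arrays, with adjusted p-values of up to 0.0931. Of 13 myogenic factors 2 had a negative interaction that was called, and of 27 sarcomere genes 3. Of 18 heme and red cell genes 2 had a negative interaction that was called, and 0 a positive one. The carbonic anhydrase gene cahz read 56.8, 57.7 and 62.7 in spt tail and 279, 277 and 354 in wild-type tail, and 104.5, 116 and 111 in spt IM and 124 and 155 in wild-type IM (−1.79 ± 0.21, adjusted p = 0.00775). Slc4a1a read 11.4, 17.7 and 16.9 in spt tail and 186, 230 and 94.9 in wild-type tail (−3.04 ± 0.50, adjusted p = 0.0273), and leaving out any 1 of 6 arrays raised the adjusted p to between 0.0533 and 0.0951.

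The interaction had the opposite sign for atp1a1a.3 and slc12a3, and of 12 genes of pronephros function 1 had a positive interaction that was called. Atp1a1a.3, a sodium pump subunit, read 1866, 1545 and 1629 in spt tail and 175, 194 and 223 in wild-type tail, and 157, 176 and 178 and 180 and 138 in the IM samples, an interaction of 2.89 ± 0.27 (adjusted p = 0.00183). The distal tubule gene slc12a3 read 1060, 708 and 846 in spt tail and 209, 209 and 279 in wild-type tail (1.83 ± 0.32, adjusted p = 0.0402), and 7 of the 11 arrays, left out one at a time, each raised the adjusted p to between 0.0522 and 0.125. The spt tail arrays were the highest in both genes. For sulf2b, a heparan sulphate 6-O-endosulphatase gene, the IM samples parted instead, with 36.2, 30.1 and 30.8 in spt and 2385 and 1094 in wild type, 110, 111 and 111 and 125, 112 and 132 in the tails, and the largest interaction of those named (4.95 ± 0.35, adjusted p = 0.000489). Dhrs9, a retinol dehydrogenase gene, gave 2.896 ± 0.21, with 118.7, 86.7 and 104 in spt IM and 922 and 949 in wild-type IM. The early growth response gene egr2a (3.36 ± 0.30), npdc1a (2.81 ± 0.27), the kinase gene plk2b (4.01 ± 0.42) and the myeloid factor gene cebpa (3.27 ± 0.36) had the same form, being highest on the wild-type IM arrays. In the other direction, cited4a read 1351, 927 and 1346 in spt IM and 273 and 144 in wild-type IM (−2.88 ± 0.37), and rnf19a (−2.39 ± 0.31), rgs12a (−2.93 ± 0.40) and sfr1 (−3.26 ± 0.45) likewise were low only on the wild-type IM arrays or, for sfr1, high only on the spt ones. Without spt tail replicate 5 these 3 interactions had an adjusted p of 0.0527, 0.0527 and 0.0527, and rgs12a and sfr1 were also lost without spt tail replicate 6 (0.0541 for both), sfr1 without spt tail replicate 4 (0.0561) and without wild-type tail replicate 2 (0.0543). Leaving out any 1 of the 11 arrays moved the count of interactions by more than 1.5 times, from 22 without spt tail replicate 5 to 401 without spt IM replicate 4, so the 84 are a count that depends on each array.

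**Figure D5:**
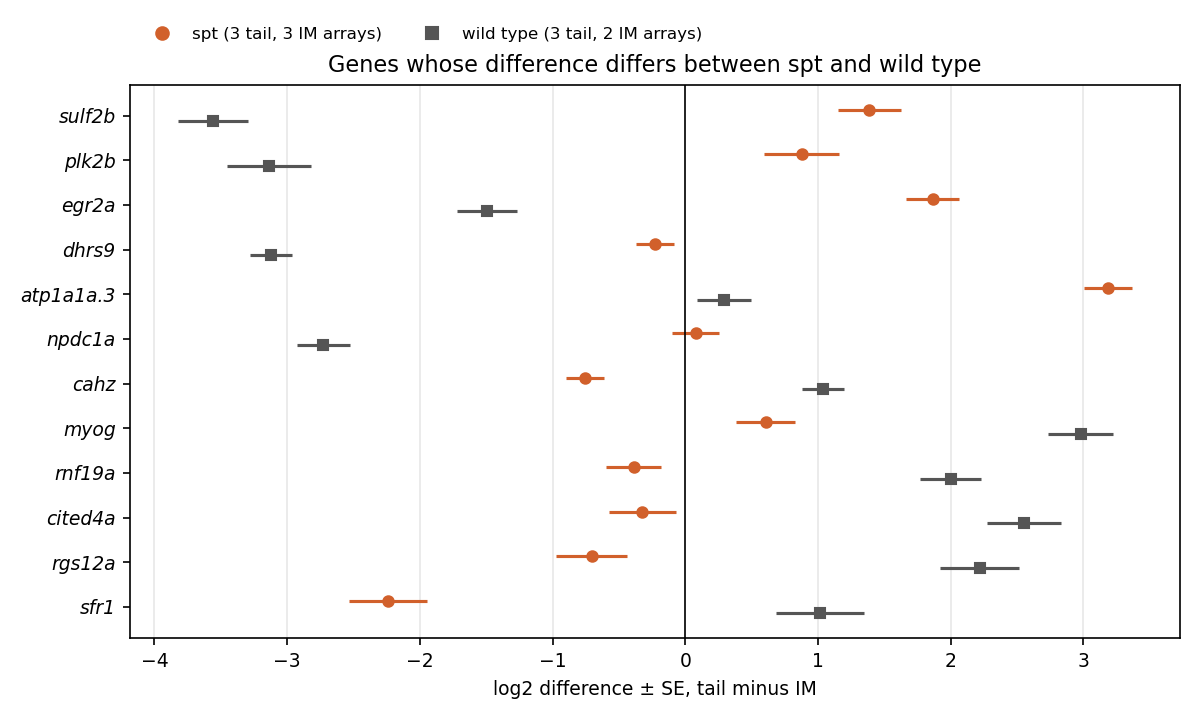
Log2 difference tail minus IM with its standard error in spt (3 against 3 arrays) and in wild type (3 against 2 arrays) for the 6 genes of smallest interaction p in each direction, from the fit of all 11 arrays. In sulf2b, egr2a and plk2b the spt difference is positive and the wild-type difference negative; for atp1a1a.3 it is large in spt and near 0 in wild type.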

How the data were processed

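Signals of 15617 probe sets on 11 arrays of 1 colour were analysed. The deposited values are linear intensities that the authors obtained with MAS5 (version 5.0, per the submitters' processing notes). Which scaling these values carry is not given in the sources used here, and the columns of the 2 stages were written with different numbers of decimals. All arrays were therefore normalised together here.

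The 115 control probe sets were left out. Of the 15502 others, 10795 had 1 gene symbol, 135 several and 4572 none, which gave 8793 named genes (1 symbol was updated). The 6 spt arrays were quantile-normalised and 16 was added before taking log2. The difference was tested in limma 3.58.1, run in R 4.3.3, using a trended variance prior and no replicate block, and p-values were adjusted over all 15502 probe sets by the Benjamini-Hochberg method. The genotype interaction was fitted over all 11 arrays, normalised together. Tables and plots were made with Python 3.11.15, numpy 2.4.6, pandas 2.3.3 and matplotlib 3.10.9. The number of arrays limits the precision.

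A gene was represented by its brightest probe set. Genes were named as tbx16 and pax2a, the 12 largest called differences without overlap in each direction that reached 100 on all arrays of the higher group, up to 4 such members per list and direction and the first members of a list, 6 genes per sign of the interaction by p, and 5 genes per group by SD. Ca2, cldne, ldb1a, olig2 and snap25a were named outside this rule after their values were seen. Members and the 39 lists, of which 7 are the study's, were chosen with earlier results of these data known. The count over all 3 scalings was added after seeing the data.

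The fits were tested on simulated data with known differences under both of a pair of assumptions about spread. Where each probe set had its pooled, moderated spread, false calls stayed within the threshold's allowance in the interaction and somewhat above it in the comparison of tail with IM. That assumption was added after the first test, in which each probe set kept its own spread in each group and false calls exceeded the allowance in both, most in the interaction. The fits themselves were not altered. Alternatives were other scalings, other added constants, a filter on low signals, weights per group, unequal variances, a test against a log2 difference of 1, a replicate block, exclusion of probe sets that can cross-hybridise, and leaving out each array.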

Additional observations from a re-analysis of the deposited data

Results flagged for a closer look

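In 17 of the genes described above the tail minus IM difference itself differed between spt and wild type in the interaction test (limma, 11 arrays, log2 scale, adjusted over all probe sets). The difference was more positive in spt for sulf2b (4.95), plk2b (4.01), egr2a (3.36), cebpa (3.27), dhrs9 (2.896), atp1a1a.3 (2.89), npdc1a (2.81) and slc12a3 (1.83). It was more negative in spt for sfr1 (−3.26), slc4a1a (−3.04), rgs12a (−2.93), cited4a (−2.88), rnf19a (−2.39), myog (−2.37), dmrt2a (−1.94), cahz (−1.79) and si:ch73-311h14.2 (−1.42). Each value is that of the gene's brightest probe set, and for rnf19a the other probe sets did not share its spt difference.

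The calls of 9 of them (sulf2b, plk2b, egr2a, cebpa, dhrs9, atp1a1a.3, npdc1a, cited4a and cahz) held under each alternative run for the interaction. That of si:ch73-311h14.2 was lost without any 1 of 7 arrays, with adjusted p-values of 0.0511 to 0.102. Outliers were not sought, since no group held more than 3 arrays.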

How the results depend on the processing

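Of 161 gene differences given, 1 changed sign: bmp4 was 0.11 on the deposited signals in place of −0.65. The count of called probe sets, 7124, fell to 3385 (1672 higher, 1713 lower) with unequal variances, to 1203 (778 and 425) in the test against a log2 difference of 1, which asks for more by construction, and to 4194 (2606 and 1588) when all 3 scalings had to agree. On the deposited signals 5908 were higher and 1674 lower. Leaving out 1 array gave 4879 to 7607 called, 2454 to 3478 higher and 2425 to 4129 lower. Single genes lost their call mainly with unequal variances (38), in the test against 1 (54) and under the replicate block (15). In the test with unequal variances the adjusted p was 0.158 for foxi1, 0.0905 for fbxo43 and 0.0673 for gata2a. It was 0.0658 for ftr82 and 0.0607 for cldni, so these 5 genes were among those not called there. The other settings kept the count of called probe sets within 1.5 times. The causes of these changes were not tested.

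Replicate numbers 4 and 5 occur in both groups, but the samples share only a number: deviations from the group means correlated at 0.0142 and 0.0432. A fit with the replicate block called 3822 probe sets, 2067 higher and 1755 lower, and in it arrays with an unshared number carry no information on the difference.

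The interaction called 84 probe sets, and 66 to 92 with other added constants, scalings, a filter or weights per group. Leaving out 1 array gave 22 to 401. With simulated spread taken from each group separately, the fits called unchanged probe sets too often, most in the interaction. With a pooled, moderated spread the false calls of the interaction stayed within the allowance, and which assumption is closer to these data is not settled. The 84 interaction calls may therefore be weaker evidence than their adjusted p-values state. Whether the fit with weights per group, which called 66, has fewer false calls was not tested. Few arrays, amplified RNA in IM and dim signals near background limit all values.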
